A study of Mus musculus with 6 samples.

Results

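The genes described here are the chemokines and a set of cytokines of muscle stem cells: every row of the count table named Ccl, Cxcl or Cx3cl with a number, and Csf1, Csf2, Csf3, Il6, Lif, Il33, Il34, Il1a, Il1b and Tnf. The rule uses names and no measured value, though it was drawn up with earlier results of these data known. The genes number 49 of 45527 named genes, 39 of them chemokines by name and 10 other cytokines. They were measured by RNA sequencing of muscle stem cells (satellite cells) sorted by yellow fluorescent protein from lower hindlimb muscles of mice 24 h after injury with 30 µl of cardiotoxin, a fibre-killing component of cobra venom. Every mouse carried Pax7creER, a Cre recombinase under the control of the satellite cell gene Pax7, and R26R-YFP, a reporter that Cre switches on. Mice of the 3 control libraries had 1 floxed Paxbp1 allele beside a wild-type one (Paxbp1flox/+), and those of the 3 libraries labelled Paxbp1-iKO had both alleles floxed (Paxbp1flox/flox). The controls therefore carried Cre and a floxed allele too. The labels do not tie a library to an animal and give no age, so p-values reflect only how far the libraries scatter, which may be technical.

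Chemokines are small secreted proteins that draw leukocytes along a gradient through receptors coupled to G proteins, and their names follow the spacing of conserved cysteines. Injured muscle is entered first by neutrophils and then by monocytes, and activated satellite cells are one of the sources of the signals that call them. Csf1 supports the survival of monocytes and macrophages. Il6 and Lif signal through gp130, and Il1a, Il1b and Tnf are classical inflammatory cytokines that switch on NF-kB, itself a main activator of chemokine genes.

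Libraries held 23327359 to 28050748 counts, and 20393 to 25433 named genes had a count. Paxbp1, which encodes a partner of Pax3 and Pax7, had 1583, 1917 and 1592 counts in controls 1 to 3 and 2745, 3162 and 3125 counts in iKO-labelled 1 to 3. It was higher in the libraries labelled as its knockout, from 68.6 ± 6.81 to 110.2 ± 15.4 CPM (mean ± SD, n = 3 per group; CPM are counts scaled to library size; log2 fold change 0.68 ± 0.13, adjusted p = 0.00954). This goes against the label. Counts cover the whole gene, including 1142 exon bases shared with the antisense gene 4930404I05Rik, and which exons were floxed is unknown here, so whether the floxed part was lost is not shown. The groups keep the names on their labels, from which each direction is read. Of 10 satellite cell markers, all had counts in every library, with summed levels of 8227 to 8880.0 CPM (controls) and 11485 to 11812 CPM (iKO-labelled). Of these 10, 7 were called higher and 2 lower, where 8.15% of all tested genes were called higher and 12.3% lower. Of 8 macrophage and monocyte markers none passed the test, and their summed level was 171 to 257 CPM (controls) and 178 to 299 CPM (iKO-labelled). Ptprc, carried by all leukocytes, stood at 5.31 ± 1.43 CPM and 6.11 ± 1.38 CPM. The 7 neutrophil markers summed to 2.98 to 10.96 CPM and 5.39 to 7.60 CPM, with Ly6g at 0 in every control and 3 counts in 1 iKO-labelled library. The 7 fibro-adipogenic markers summed to 931 to 993 CPM and 813 to 1038 CPM, and the 7 endothelial markers to 42.0 to 145 CPM and 57.8 to 77.9 CPM. The most abundant markers were Sdc4, Vcam1 and Myod1 (satellite cell), Lyz2, Cd14 and Cd68 (macrophage), S100a8, S100a9 and Csf3r (neutrophil), Laptm5, Fcer1g and Ptprc (all leukocytes), Pecam1, Flt1 and Tie1 (endothelial) and Col3a1, Dcn and Dpt (fibro-adipogenic). No endothelial, fibro-adipogenic, smooth muscle, Schwann or leukocyte marker tested passed the test, and the part of any marker list, the satellite cell list included, in the results below was not tested. Fewer cells of a type and less RNA per cell cannot be told apart in such pooled samples.

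Per unit of gene length, Cxcl1 was by far the most abundant member in both groups. FPKM are fragment counts scaled to gene length and to a size factor of each library. Cxcl1 stood at 1489, 2729 and 1596 FPKM in controls 1 to 3 and 1206, 1146 and 1165 FPKM in iKO-labelled 1 to 3. In the controls it was followed by Ccl2 at 247 ± 83.6 FPKM, Cxcl2 at 181 ± 65.3 FPKM, Cxcl5 at 143 ± 44.2 FPKM, Ccl7 at 141 ± 51.2 FPKM and Csf1 at 129.8 ± 9.39 FPKM. Cxcl1 lay above Ccl2 in every control, neighbours from Ccl2 down to Csf1 overlapped, and every control level of Csf1 lay above every one of Ccl11, the next at 31.4 ± 13.4 FPKM. In the iKO-labelled libraries the order after Cxcl1 was Cxcl2 at 125 ± 13.3 FPKM, Cx3cl1 at 97.05 ± 13.1 FPKM, Ccl2 at 81.7 ± 6.19 FPKM, Ccl7 at 66.3 ± 2.99 FPKM, Cxcl5 at 66.05 ± 9.85 FPKM and Csf1 at 48.4 ± 2.58 FPKM. There only Ccl7 and Cxcl5 overlapped among these neighbours, and Cx3cl1 had moved from rank 8 to rank 3. All members together took 0.475% to 0.776% of the counts of a control and 0.391% to 0.412% of those of an iKO-labelled library, of which Cxcl1 alone was 0.276% to 0.497% and 0.228% to 0.236%.

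**Figure D1:**
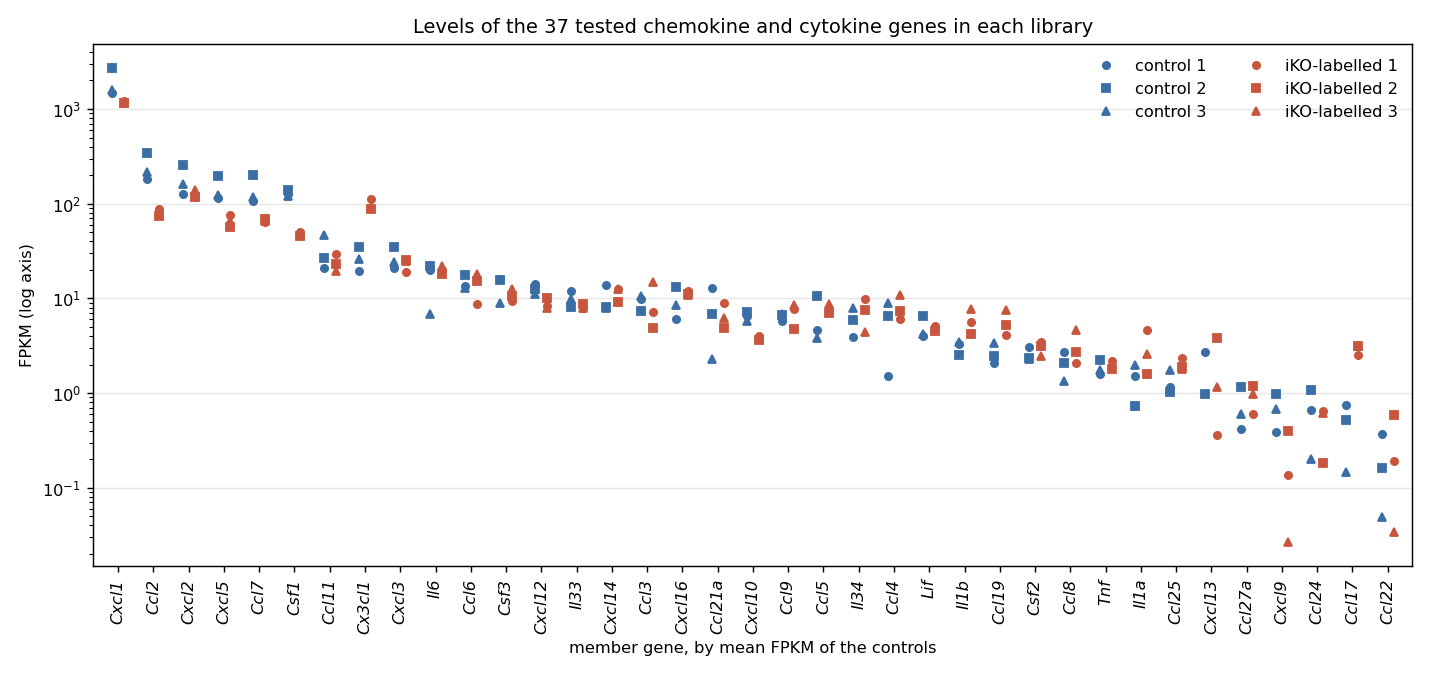
FPKM of the 37 tested members in every library, on a log axis, ordered by the mean of the controls (blue) with the iKO-labelled libraries in red; circle, square and triangle are replicates 1, 2 and 3. Cxcl1 stands alone at the top, the controls lie above the iKO-labelled libraries for Ccl2, Cxcl5, Ccl7 and Csf1, and below them for Cx3cl1 and Ccl17; 1 value of Cxcl13 is at 0 and not drawn.

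The comparison addresses how satellite cells with both Paxbp1 alleles floxed differ from controls early after injury. Of the 49 members, 37 had enough counts to be tested, 27 chemokines and 10 cytokines. Members called lower, with a Benjamini-Hochberg adjusted p under 0.05 by the quasi-likelihood test of edgeR across 16252 genes, numbered 7 (18.9%), where 12.3% of all tested genes were lower. They were Csf1, Ccl2, Cxcl5, Ccl7, Cxcl12, Cxcl10 and Cxcl1. Cx3cl1 was the 1 member called higher (2.70%), where 8.15% of all tested genes were. In either direction 8 of 37 passed (21.6%), close to the 20.4% of all tested genes. The median log2 fold change (iKO-labelled against control) was 0.082 over the tested members and 0.023 over all tested genes. CPM ranges of control and iKO-labelled libraries were separate for 12 of the 37 (32.4%), where this held for 39.8% of all tested genes. Of 6 members with a control mean of at least 100 FPKM 5 were called, all lower. Of all tested genes at that level 51.8% were called in either direction and 41.1% were lower. Of 7 between 10 and 100 FPKM 2 were called in either direction, against 35.6% of all tested genes there, and of 24 under 10 FPKM 1 was called, against 13%. These bounds were chosen after the values were seen, and over all genes the share called rose with the level too. Scaled by library totals, 3 members were called higher and 4 lower. The count of lower members was 3 without iKO-labelled 3 and 4 without iKO-labelled 1.

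**Figure D2:**
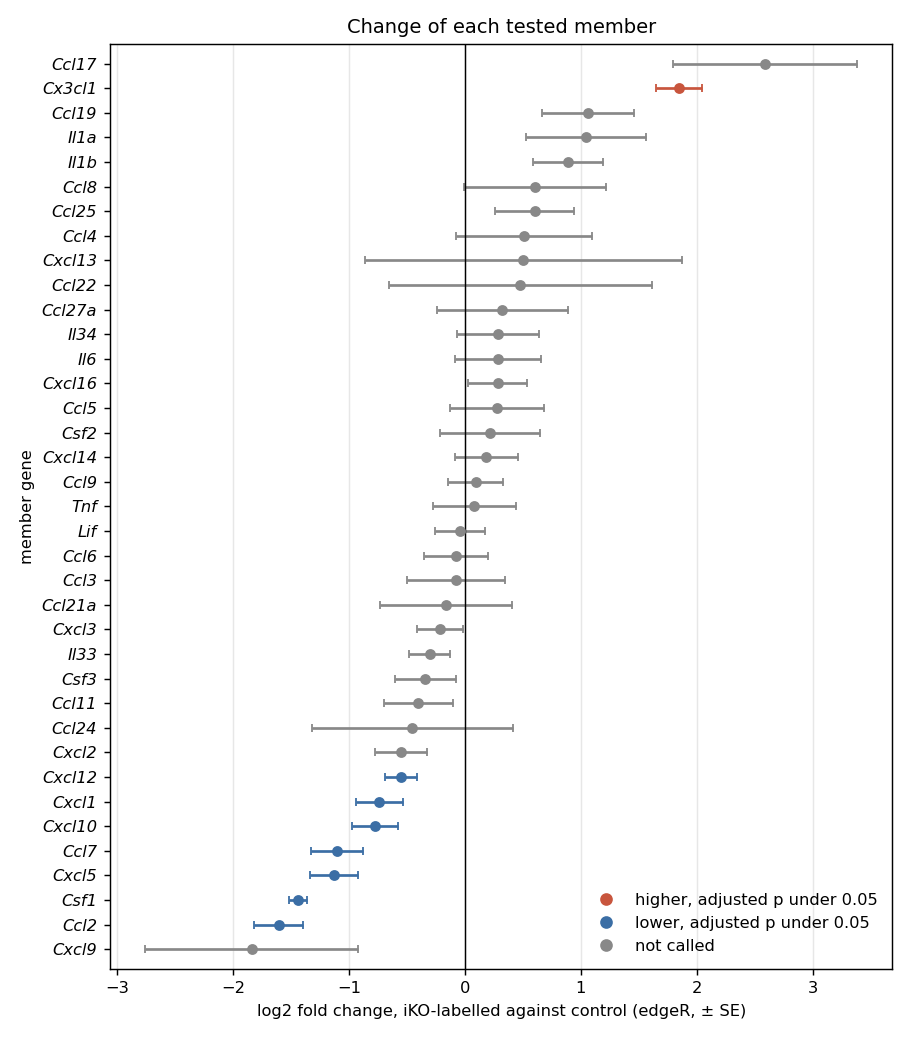
Log2 fold change of iKO-labelled against control libraries ± SE from edgeR for the 37 tested members; blue marks the 7 called lower, red the 1 called higher and grey the 29 not called. Ccl2, Csf1, Cxcl5 and Ccl7 lie furthest to the left among the called members, Cx3cl1 is the only called member on the right, where Ccl17 lies further out without a call, and wide bars such as those of Cxcl9 and Cxcl13 belong to members with few counts.

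Csf1, Ccl2 and Ccl7, signals for monocytes and macrophages, fell. Csf1, the macrophage colony-stimulating factor (minus strand of chromosome 3, 107741048 to 107760469 in GRCm38), stood at 701, 754 and 652 CPM in controls 1 to 3 and 271, 244 and 262 CPM in iKO-labelled 1 to 3. Every iKO-labelled library lay far below every control, and the mean fell 2.71-fold (log2 fold change -1.44 ± 0.079, adjusted p = 6.1e-05). Ccl2, the main ligand of the monocyte receptor Ccr2 (plus strand of chromosome 11, 82035571 to 82037453), was at 218, 396 and 247 CPM in controls 1 to 3 and 101, 86.6 and 95.6 CPM in iKO-labelled 1 to 3. The groups did not overlap, control 2 was the highest library, and the mean fell 3.05-fold (log2 fold change -1.61 ± 0.21, adjusted p = 0.00181). Ccl7, another Ccr2 ligand whose gene starts beside it on the same strand (82045712 to 82047525), had 88.6, 163 and 95.1 CPM in controls 1 to 3 and 52.1, 56.7 and 52.8 CPM in iKO-labelled 1 to 3. It fell 2.15-fold (log2 fold change -1.10 ± 0.22, adjusted p = 0.0115), again with control 2 highest and no overlap. The call of Ccl7 ended without iKO-labelled 3 (adjusted p = 0.051), and without control 2 its log2 fold change was -0.77. Ccl2, Ccl7 and Cxcl5 were not called on unfiltered log2(FPKM + 1), where the adjusted p was 0.0589, 0.162 and 0.127.

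The next genes of that chromosome 11 cluster did not pass the test or were not tested. Ccl11, the eosinophil attractant eotaxin, was at 23.5, 29.4 and 51.2 CPM in controls and 32.4, 25.2 and 21.1 CPM in iKO-labelled libraries. Control 3 was the highest and the groups overlapped (log2 fold change -0.40 ± 0.30, adjusted p = 0.411). Ccl8, also a monocyte attractant, stood at 1.43, 1.08 and 0.6896 CPM in controls and 1.09, 1.398 and 2.39 CPM in iKO-labelled libraries, with overlapping groups near 1 CPM (log2 fold change 0.60 ± 0.61, adjusted p = 0.556). Ccl12 was too low to be tested, with at most 9 counts in a library. These genes are close relatives in sequence, and the counting of reads that match more than 1 of them was not given in the sources used here.

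Of the 4 tested attractants of neutrophils, Cxcl5 and Cxcl1 fell and Cxcl2 and Cxcl3 did not pass the test. Cxcl1, Cxcl2, Cxcl3 and Cxcl5 act on the neutrophil receptor Cxcr2 and lie together on the plus strand of chromosome 5, from 90759360 (Cxcl5) to 90905938 (Cxcl2). Cxcl5 was at 219.7, 369 and 231 CPM in controls 1 to 3 and 144, 107 and 123 CPM in iKO-labelled 1 to 3. No library of a group reached the other group, and the mean fell 2.19-fold (log2 fold change -1.13 ± 0.21, adjusted p = 0.00736). Cxcl1 was at 2895, 5219 and 3043 CPM in controls 1 to 3 and 2289, 2178 and 2215 CPM in iKO-labelled 1 to 3. Control 2 was far above the other libraries, the groups did not overlap, and the mean fell 1.67-fold (log2 fold change -0.74 ± 0.20, adjusted p = 0.037). Without control 2 the log2 fold change of Cxcl1 was -0.41 (adjusted p = 0.00607), with the call kept. The call of Cxcl1 ended with DESeq2 (adjusted p = 0.0577), with upper-quartile or library-total scaling, on unfiltered log2(FPKM + 1) and without any 1 of the iKO-labelled libraries, with adjusted p from 1.0e-06 to 0.395 over all alternatives.

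Cxcl2 stood at 272, 535 and 343 CPM in controls 1 to 3 and 246, 245 and 294 CPM in iKO-labelled 1 to 3. The groups overlapped between control 1 and iKO-labelled 3 (log2 fold change -0.55 ± 0.22, adjusted p = 0.128), and without control 2 the log2 fold change was -0.23. It passed with DESeq2 (adjusted p = 0.0387), with no count filter (adjusted p = 0.00202) and without control 1 (adjusted p = 0.0346). Cxcl3 had 76.7, 123 and 85.7 CPM in controls and 67.5, 90.7 and 88.4 CPM in iKO-labelled libraries, with control 2 highest and the other 5 libraries close together (log2 fold change -0.21 ± 0.20, adjusted p = 0.516). Cxcl15, a chemokine known from lung, had 23 counts in iKO-labelled 2, 1 in control 1 and none elsewhere, and was not tested. Csf3, which drives the production of neutrophils, was at 23.6, 22.8 and 12.7 CPM in controls and 13.5, 15.2 and 17.9 CPM in iKO-labelled libraries, with control 3 the lowest of all and the groups overlapping (log2 fold change -0.34 ± 0.26, adjusted p = 0.434).

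NF-kB binds the kappaB element, and Cxcl1, Cxcl2 and Cxcl3 carry the same one in front of their start. The promoter table used has no window for Cxcl5, Ccl2 or Ccl7, whose promoters were therefore not searched. The stretches shown are the kappaB matches nearest the start with up to 30 bases on each side, 5′ to 3′ on the gene's strand, read from RefSeq promoter windows of GRCm38.p6 (250 bases before to 50 after the start); capitals mark the match or, where matches overlap, their union. They are shown because the first 3 share 1 element. Of these 3, Cxcl1 alone was called with edgeR and Cxcl2 alone with DESeq2, and a difference between the 3 was not tested. Cxcl10 and Csf1 were called lower, and Il6 was not called.
Cxcl1 (chr5:90891144-90891214, plus strand): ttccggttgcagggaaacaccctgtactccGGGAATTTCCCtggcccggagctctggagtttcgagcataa
Cxcl2 (chr5:90903772-90903842, plus strand): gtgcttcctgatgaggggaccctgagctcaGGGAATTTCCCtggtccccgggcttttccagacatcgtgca
Cxcl3 (chr5:90785998-90786068, plus strand): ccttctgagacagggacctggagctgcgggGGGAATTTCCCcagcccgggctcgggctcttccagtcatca
Cxcl10 (chr5:92348953-92349023, minus strand): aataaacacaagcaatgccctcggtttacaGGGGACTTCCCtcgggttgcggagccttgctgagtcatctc
Csf1 (chr3:107760584-107760653, minus strand): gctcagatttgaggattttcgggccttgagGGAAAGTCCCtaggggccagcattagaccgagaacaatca
Il6 (chr5:30013040-30013109, plus strand): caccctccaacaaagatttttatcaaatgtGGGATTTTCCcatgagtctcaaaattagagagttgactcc

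Counting the last base before the start as -1, the matches began at -71 in Cxcl1, -97 in Cxcl2, -73 in Cxcl3 and -44 in Il6. In Csf1 the match lay on the other strand, from -154 to -145. Promoter windows were found for 34 of the 49 members, and the kappaB consensus, searched on both strands, occurred in those of 11 of them (32.4%), against 9.55% of all 27025 genes with a window. The members were Ccl1, Ccl9, Ccl20, Ccl27a, Csf1, Cxcl1, Cxcl2, Cxcl3, Cxcl10, Il6 and Lif. Of these 11, Csf1, Cxcl1 and Cxcl10 were called lower and Ccl1 and Ccl20 were not tested; with 3 of the 7 lower members not searched, nothing is read from that count. The AP-1 motif TGANTCA, a palindrome but for its central base, searched likewise, was in the windows of 9 members (26.5%, against 8.97% of genes). The core of the interferon-stimulated response element (ISRE) was in those of 3 members, Ccl19, Cxcl10 and Cxcl14 (8.82%, against 3.99%). No kappaB match overlapped a match of either other motif. The window of Cx3cl1 held none of the 3 motifs, which says only that these letters are not in that window.

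Cx3cl1 went the other way. It encodes fractalkine, a chemokine made as a membrane protein that tethers leukocytes and is released by cleavage, and it lies on the plus strand of chromosome 8 (94772009 to 94782427). Its level was 75.1, 131 and 97.2 CPM in controls 1 to 3 and 421, 332 and 341 CPM in iKO-labelled 1 to 3. The lowest iKO-labelled library lay well above the highest control, and the mean rose 3.61-fold (log2 fold change 1.85 ± 0.20, adjusted p = 6.9e-04). It was called under all 17 alternatives, with log2 fold changes of 1.68 to 2.08. The proteases that shed it were lower: Adam10 fell from 117 ± 6.18 to 72.4 ± 3.28 CPM (log2 fold change -0.70 ± 0.094, adjusted p = 0.00196) and Adam17, which also releases Tnf, from 122 ± 12.6 to 83.2 ± 7.496 CPM (log2 fold change -0.55 ± 0.12, adjusted p = 0.013). The call of Adam17, singled out after its values were seen, ended without controls 2 or 3 or iKO-labelled 3. Shedding of Cx3cl1 was not measured, and a link between these RNA levels was not tested.

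The other chemokine genes of that stretch of chromosome 8 are Ccl22, which ends 20309 bases before Cx3cl1, and Ccl17, which starts 28025 bases after it. Both encode ligands of Ccr4, the receptor of type 2 helper and regulatory T cells. Ccl17 had 9, 7 and 2 counts in controls 1 to 3 and 37, 48 and 40 counts in iKO-labelled 1 to 3, or 0.402, 0.271 and 0.0766 CPM in controls and 1.297, 1.64 and 1.62 CPM in iKO-labelled libraries. The iKO-labelled libraries all exceeded the highest control, but the rise missed the threshold (log2 fold change 2.59 ± 0.79, adjusted p = 0.0541). It passed with DESeq2 (adjusted p = 0.0122), library-total scaling and each of the 3 fits on log2 FPKM, with log2 fold changes of 1.43 to 3.10 and adjusted p of 0.00211 to 0.159 over the alternatives. Ccl22 was at 0.894, 0.387 and 0.115 CPM in controls and 0.456, 1.398 and 0.0811 CPM in iKO-labelled libraries, scattered in both groups (log2 fold change 0.48 ± 1.13, adjusted p = 0.821). Beyond Ccl17, Ciapin1, a factor of iron-sulphur protein assembly, fell from 98.0 ± 4.78 to 67.2 ± 10.8 CPM (log2 fold change -0.54 ± 0.13, adjusted p = 0.0227), and Coq9 of ubiquinone synthesis was at 20.2 ± 2.32 and 11.5 ± 4.55 CPM (-0.81 ± 0.30, adjusted p = 0.103).

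**Figure D3:**
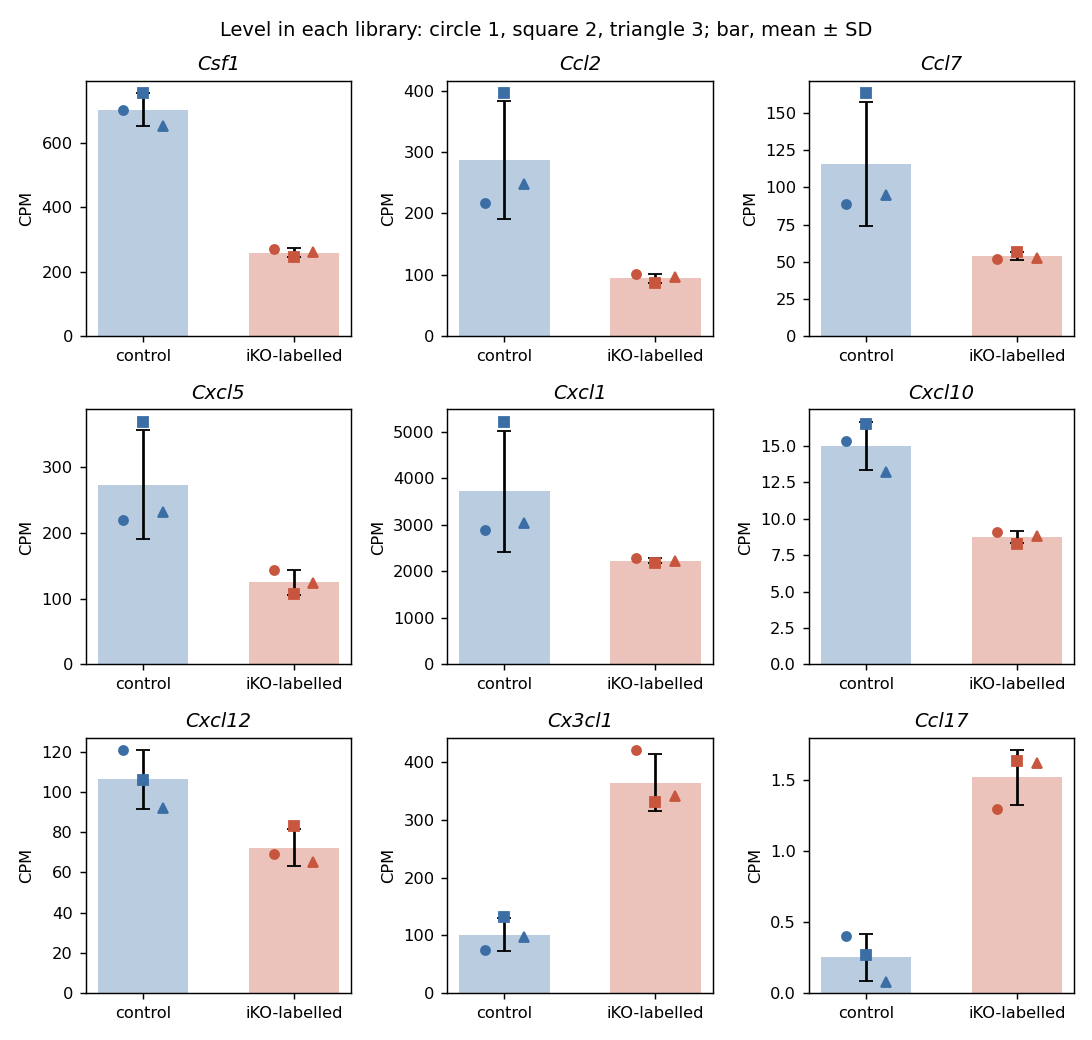
CPM in each library (circle, square and triangle for replicates 1, 2 and 3) with bars for the mean ± SD of 3 libraries, controls in blue and iKO-labelled in red, for the 8 called members and Ccl17, which missed the threshold. The square of control 2 is the highest point for Ccl2, Ccl7, Cxcl5 and Cxcl1, and no panel has overlapping groups.

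Of the interferon-induced and homeostatic chemokines, Cxcl10 and Cxcl12 fell. Cxcl10, which draws T cells through Cxcr3, was at 15.3, 16.5 and 13.2 CPM in controls 1 to 3 and 9.11, 8.28 and 8.84 CPM in iKO-labelled 1 to 3. The groups did not overlap and the mean fell 1.72-fold (log2 fold change -0.78 ± 0.20, adjusted p = 0.0281), but the call ended with library totals, without the count filter and without any 1 library except control 3, with adjusted p up to 0.0918. Cxcl9, induced with it by interferon gamma, was at 1.21, 2.98 and 2.07 CPM in controls and 0.421, 1.23 and 0.0811 CPM in iKO-labelled libraries, with iKO-labelled 2 inside the range of the controls (log2 fold change -1.84 ± 0.92, adjusted p = 0.212). Cxcl11 had at most 2 counts in a library.

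Cxcl12, the ligand of Cxcr4 that holds stem cells in their niches, was at 121, 106 and 91.95 CPM in controls 1 to 3 and 69.1, 82.9 and 65.2 CPM in iKO-labelled 1 to 3. It fell 1.47-fold without overlap (log2 fold change -0.55 ± 0.14, adjusted p = 0.0267). Its call ended with upper-quartile (adjusted p = 0.0514) or library-total scaling (adjusted p = 0.0681), on unfiltered log2(FPKM + 1) (adjusted p = 0.167) and without controls 1 or 2 or iKO-labelled 1 or 3. Cxcl14, a chemokine of epithelia and stroma, stood at 26.02, 15.04 and 14.7 CPM in controls and 23.3, 16.8 and 23.3 CPM in iKO-labelled libraries, and Cxcl16, a membrane-bound ligand of Cxcr6, at 19.1, 40.5 and 26.1 CPM in controls and 36.8, 34.5 and 33.01 CPM in iKO-labelled libraries. Both had overlapping groups (adjusted p = 0.695 and 0.507). Cxcl13, the B cell attractant, was listed at 3.22, 1.16 and 0 CPM in controls and 0.421, 4.43 and 1.34 CPM in iKO-labelled libraries, a spread too wide for a direction (log2 fold change 0.50 ± 1.36, adjusted p = 0.845).

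Of the lymphoid tissue chemokines, Ccl19, a ligand of Ccr7, was at 1.88, 2.203 and 2.99 CPM in controls 1 to 3 and 3.61, 4.57 and 6.61 CPM in iKO-labelled 1 to 3. Each iKO-labelled library lay above each control without passing the test (log2 fold change 1.06 ± 0.39, adjusted p = 0.1), and it passed only in the filtered fits on log2 FPKM among the alternatives. Ccl21a, the other Ccr7 ligand, was at 11.6, 6.11 and 2.03 CPM in controls and 7.82, 4.26 and 5.47 CPM in iKO-labelled libraries (log2 fold change -0.17 ± 0.57, adjusted p = 0.879); near-identical copies, listed here as Ccl21b and Ccl21c with no counts, can share its reads. Ccl25, which acts on Ccr9, was at 3.22, 2.78 and 4.75 CPM in controls and 6.34, 5.08 and 4.91 CPM in iKO-labelled libraries (log2 fold change 0.60 ± 0.34, adjusted p = 0.274), and its exons overlap those of Elavl1 on the other strand. The skin chemokine Ccl27a, whose exons overlap Il11ra1, stood at 1.03, 2.82 and 1.46 CPM in controls and 1.44, 2.86 and 2.35 CPM in iKO-labelled libraries. The eosinophil attractant Ccl24 had 0.894, 1.43 and 0.268 CPM in controls and 0.841, 0.239 and 0.811 CPM in iKO-labelled libraries. Neither passed the test. In all, 9 of the 47 members with a position in GENCODE M21 share exon bases with another gene, 8 of them tested, and without strand such reads cannot be told apart. Among the called members this holds for Cxcl10 only, which shares 133 exon bases with Art3 on the other strand. Cxcl16, not called, shares 552 with Zmynd15.

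The second block of the chromosome 11 cluster holds Ccl5, Ccl9, Ccl6, Ccl3 and Ccl4, which are known as products of macrophages and lymphocytes. None of the 5 passed the test, and the groups overlapped for all 5. Ccl6 was at 25.2, 32.4 and 23.5 CPM in controls and 15.7, 27.9 and 33.3 CPM in iKO-labelled libraries, and Ccl9 at 18.4, 20.8 and 21.3 CPM in controls and 23.6, 14.6 and 26.3 CPM in iKO-labelled libraries. Ccl3 had 7.87, 5.798 and 8.28 CPM in controls and 5.503, 3.78 and 11.6 CPM in iKO-labelled libraries, with the highest and the lowest values both in iKO-labelled libraries. Ccl4 stood at 1.03, 4.37 and 5.98 CPM in controls and 4.03, 4.91 and 7.299 CPM in iKO-labelled libraries, and Ccl5 at 4.61, 10.4 and 3.72 CPM in controls and 7.43, 6.75 and 8.56 CPM in iKO-labelled libraries. Control 1 was lowest for Ccl4, and control 2 stood above the rest for Ccl5. Their log2 fold changes ran from -0.076 (Ccl3, SE 0.42) to 0.51 (Ccl4, SE 0.59).

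Of the 10 cytokines, Csf1 was the only one called, where 20.4% of all tested genes were called in either direction. Il6, the gp130 cytokine that satellite cells release on injury, was at 50.1, 54.6 and 17.1 CPM in controls 1 to 3 and 49.6, 44.5 and 54.2 CPM in iKO-labelled 1 to 3. Control 3 was far below the other 5 libraries, which lay together (log2 fold change 0.28 ± 0.37, adjusted p = 0.66). Lif, of the same family, stood at 18.02, 28.7 and 18.6 CPM in controls and 22.4, 19.8 and 21.4 CPM in iKO-labelled libraries, with control 2 highest (log2 fold change -0.04 ± 0.22, adjusted p = 0.923). Il33, an alarmin of the interleukin 1 family, was at 35.6, 23.97 and 28.9 CPM in controls and 23.1, 25.2 and 23.3 CPM in iKO-labelled libraries, with the iKO-labelled libraries at the lower end of the controls (log2 fold change -0.30 ± 0.18, adjusted p = 0.287).

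Il1b was at 6.53, 4.91 and 6.78 CPM in controls 1 to 3 and 10.8, 8.05 and 14.9 CPM in iKO-labelled 1 to 3. The groups did not overlap, but the difference missed the threshold (log2 fold change 0.89 ± 0.30, adjusted p = 0.0741) and passed under 5 of 17 alternatives, among them DESeq2 (adjusted p = 0.0254) and library totals (adjusted p = 0.0472). Il1a, which signals through the same receptor, stood at 3.08, 1.47 and 3.98 CPM in controls and 9.22, 3.204 and 5.19 CPM in iKO-labelled libraries, with iKO-labelled 1 highest and the groups overlapping (log2 fold change 1.04 ± 0.52, adjusted p = 0.211). Reads of the antisense genes Il1bos and Gm14023 cannot be told from those of Il1b and Il1a without strand. Tnf, at 2.68, 3.75 and 2.91 CPM in controls and 3.65, 2.97 and 3.28 CPM in iKO-labelled libraries, was even across libraries (log2 fold change 0.082 ± 0.36, adjusted p = 0.905). Il34, the other ligand of the Csf1 receptor, was at 8.003, 11.8 and 15.7 CPM in controls and 19.6, 14.9 and 8.76 CPM in iKO-labelled libraries, with wide overlap (log2 fold change 0.28 ± 0.35, adjusted p = 0.639). Csf2, the granulocyte and macrophage factor, stood at 2.55, 1.89 and 1.88 CPM in controls and 2.804, 2.56 and 1.99 CPM in iKO-labelled libraries (log2 fold change 0.22 ± 0.43, adjusted p = 0.781). The fall of Csf1 was not tested against the values of Il34 and Csf2.

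Of the 12 members left out of the test, 3 had at least 10 counts in a library, all of them in iKO-labelled libraries: Ccl20, an attractant of Ccr6 cells, with 19 counts in iKO-labelled 3 and 1 in iKO-labelled 1, Cxcl15 as given above, and Cxcl17 with 1, 17 and 5 counts in iKO-labelled 1 to 3. Another 5 had at most 9 counts in any library, namely Ccl1, Ccl12, Ccl26, Ccl28 and Cxcl11. The last 4, Ccl21b, Ccl21c, Ccl27 and Ccl27b, had no count at all.

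Members varied between libraries of a group as well. Of the 37 tested, 18 were highest among the controls in control 2, 10 in control 1 and 9 in control 3. How often control 2 was highest over all tested genes was not counted. Of the 7 members called lower, 6 were highest in control 2, Cxcl12 being the exception. For Csf1 and Cxcl10 control 2 led control 1 only slightly, with 754 against 701 CPM and 16.5 against 15.3 CPM. The median coefficient of variation of the tested members was 33.4% among controls and 15.6% among iKO-labelled libraries, where that of all tested genes was 20.7% and 18.6%. In control 2 the macrophage markers summed to 209 CPM, the pan-leukocyte to 31.4 CPM, the fibro-adipogenic to 931 CPM and the endothelial to 66.9 CPM. Each of these sums lay within the range of the other libraries. The neutrophil markers summed to 2.98 CPM, the lowest of the 6, but 5 of the 7 were at 0 in at least 1 library. Whether cells of any of these types had a part in the levels of control 2 was not tested.

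**Figure D4:**
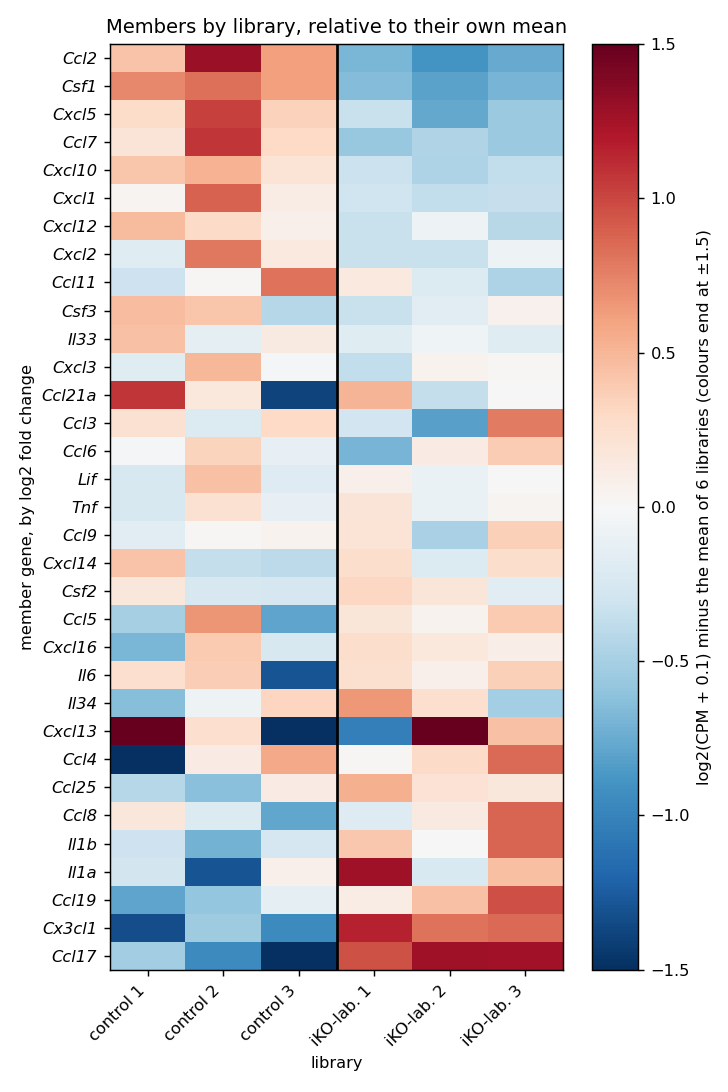
Colours give log2(CPM + 0.1) of each library minus the mean of the 6 libraries for the 33 tested members with a mean of at least 1 FPKM in either group, ordered by log2 fold change and ending at ±1.5. Ccl2, Cxcl5, Ccl7, Cxcl1 and Cxcl2 are reddest in control 2, and Ccl19, Cx3cl1 and Ccl17 are red in all iKO-labelled libraries.

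Receptors, decoys and antagonists of these ligands were taken from a list of 38 genes, of which 25 could be tested. Among the 25, 3 fell and 1 rose, where 12.3% of all tested genes were called lower and 8.15% higher, and the median log2 fold change was -0.059. Sdc1, a proteoglycan that binds chemokines and Il34, fell from 167 ± 22.8 to 106 ± 12.9 CPM (log2 fold change -0.66 ± 0.13, adjusted p = 0.0116). Ackr3, the scavenging receptor of Cxcl12, fell from 162 ± 17.3 to 109.7 ± 14.5 CPM (log2 fold change -0.57 ± 0.12, adjusted p = 0.0156), a call that ended without iKO-labelled 1 or 3. Il6st, the gp130 chain shared by Il6 and Lif, fell from 473 ± 32.3 to 371 ± 23.2 CPM (log2 fold change -0.35 ± 0.08, adjusted p = 0.0178), and this call ended with upper-quartile or library-total scaling and without controls 1 or 3. Ptprz1, a phosphatase that can bind Il34, was the riser, at 16.9, 9.78 and 6.02 CPM in controls and 17.8, 45.5 and 48.5 CPM in iKO-labelled libraries (log2 fold change 1.77 ± 0.46, adjusted p = 0.0311). Its groups were separated only by the small step from control 1 to iKO-labelled 1, and the call ended without controls 2 or 3 or iKO-labelled 2 or 3.

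Apart from Ackr3, the chemokine and Csf1 receptors of the called ligands did not exceed 25.8 CPM, the value of Cxcr4 in iKO-labelled 1. Csf1r, the receptor of Csf1 and Il34, was at 10.2, 6.49 and 14.4 CPM in controls and 4.14, 8.73 and 11.7 CPM in iKO-labelled libraries (log2 fold change -0.34 ± 0.43, adjusted p = 0.649). Ccr2 was at 1.54 ± 1.16 CPM and 2.86 ± 2.17 CPM (log2 fold change 0.89 ± 0.76, adjusted p = 0.482). Cx3cr1 had 4, 0 and 0 counts in controls 1 to 3 and 6, 14 and 18 counts in iKO-labelled 1 to 3, Cxcr2 had 12, 0 and 8 counts in controls 1 to 3 and 1, 24 and 0 counts in iKO-labelled 1 to 3, and Cxcr3 had 16 counts in iKO-labelled 2 and none elsewhere; the last 3 were not tested. Cxcr4, the signalling receptor of Cxcl12, was at 19.8, 13.7 and 19.3 CPM in controls and 25.8, 22.2 and 19.1 CPM in iKO-labelled libraries, with a difference that did not pass (log2 fold change 0.35 ± 0.21, adjusted p = 0.31).

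**Figure D5:**
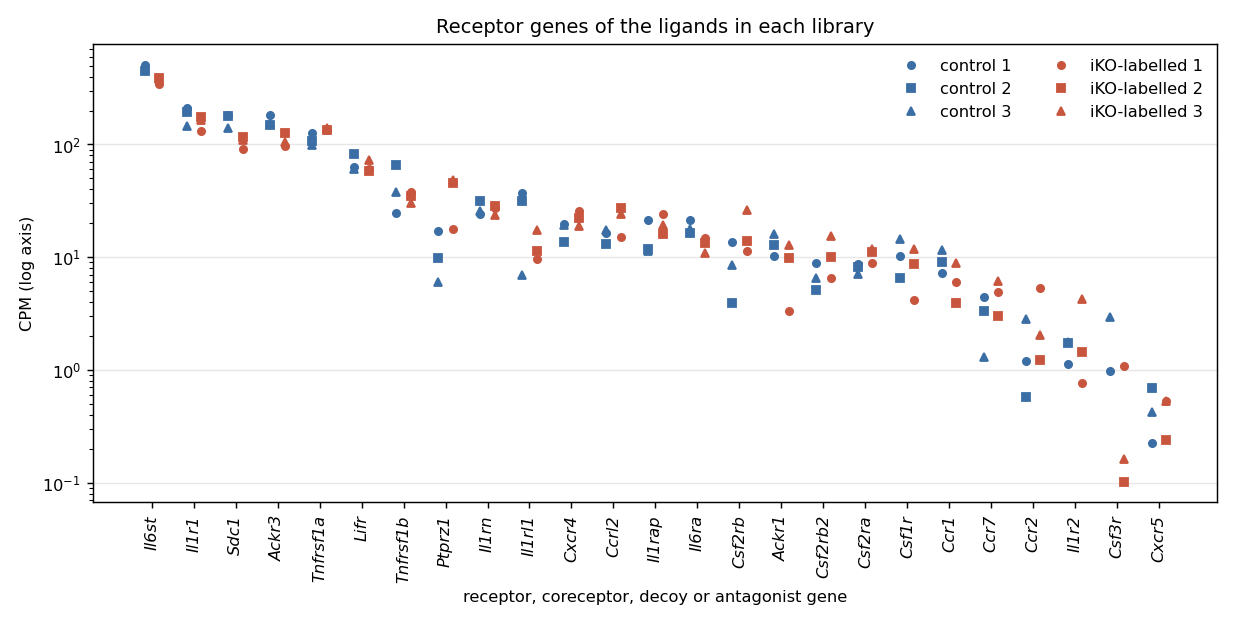
CPM on a log axis of the 25 tested receptor, decoy and antagonist genes in every library, ordered by the higher group mean; blue is control, red iKO-labelled, and circle, square and triangle are replicates 1, 2 and 3. Il6st is highest, Sdc1 and Ackr3 are lower and Ptprz1 higher in the iKO-labelled libraries, and values of 0 (of Csf3r) are not drawn.

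A list of 34 genes held those that act on chemokine transcription, messenger stability or shedding, or on signalling upstream of them. Of the 33 tested, 8 rose and 4 fell, where 8.15% of all tested genes were called higher and 12.3% lower. Among the 4 is the protease Adam10, given above with Cx3cl1. Zfp36, which marks cytokine messengers for decay, rose from 215 ± 6.64 to 359 ± 13.1 CPM (log2 fold change 0.74 ± 0.069, adjusted p = 4.3e-04), and Elavl1, which stabilises such messengers, fell from 505 ± 16.8 to 335 ± 30.6 CPM (log2 fold change -0.59 ± 0.081, adjusted p = 0.00216). Of the relatives of Zfp36 with the same function, Zfp36l1 rose from 186 ± 6.09 to 247 ± 13.3 CPM (log2 fold change 0.41 ± 0.076, adjusted p = 0.00793) and Zfp36l2 fell from 217 ± 43.6 to 142 ± 8.56 CPM (log2 fold change -0.61 ± 0.15, adjusted p = 0.0213), so the family did not move one way. The call of Zfp36l2 ended with library totals and without any 1 library except control 2. Nfkbia, the NF-kB inhibitor and itself an NF-kB target, rose from 1370.1 ± 97.5 to 1941 ± 108 CPM (log2 fold change 0.50 ± 0.071, adjusted p = 0.00247), Rela, its main activating subunit, from 329 ± 31.98 to 461 ± 24.4 CPM (log2 fold change 0.49 ± 0.088, adjusted p = 0.00713), and Myd88, the adaptor of the interleukin 1 receptor, from 74.1 ± 4.43 to 112 ± 1.59 CPM (log2 fold change 0.60 ± 0.092, adjusted p = 0.00339). Nfkbie, another NF-kB inhibitor, rose from 46.2 ± 11.6 to 86.3 ± 12.8 CPM (log2 fold change 0.90 ± 0.20, adjusted p = 0.0168). Nfkb2, another subunit, rose from 329 ± 40.9 to 431 ± 30.6 CPM (0.39 ± 0.10, adjusted p = 0.0329). Both calls ended without iKO-labelled 1 or 3, and that of Nfkb2 also without controls 1 or 3 or iKO-labelled 2. Nfkb1, Rel, Relb, Nfkbib, Nfkbiz and Bcl3 were not called. Tnfaip3, a further NF-kB target that limits its signalling, was at 303 ± 39.3 CPM and 302 ± 11.3 CPM (adjusted p = 0.981). Like Zfp36l1, Zfp36l2, Nfkbie and Nfkb2, it was singled out after its values were seen.

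Among 30 other cytokine genes in the table, 18 were tested, 1 rose and 1 fell, where 20.4% of all tested genes were called in either direction. Clcf1, a gp130 cytokine, rose from 209 ± 9.21 to 348 ± 49.9 CPM (log2 fold change 0.74 ± 0.11, adjusted p = 0.0031). Il11, another, fell from 17.5 ± 4.45 to 8.56 ± 2.26 CPM (log2 fold change -1.03 ± 0.28, adjusted p = 0.036), a call that ended with upper-quartile or library-total scaling and without controls 1 or 2 or iKO-labelled 1 or 2. The gp130 family thus held a riser and a faller beside Il6 and Lif, neither of which passed the test. On unfiltered log2(FPKM + 1), the calls of Sdc1, Ackr3, Il6st, Ptprz1, Clcf1, Il11, Nfkbia, Rela, Nfkbie, Nfkb2, Adam17 and Zfp36l2 ended as well. With the replicate number fitted as a block, the calls of Ackr3, Il6st, Ptprz1, Il11, Nfkbie and Nfkb2 also ended.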

How the data were processed

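RNA of sorted satellite cells was reverse transcribed and amplified by Smart-Seq2, per the labels' protocols, a method that does not mark strand. The authors deposited raw read counts per gene and FPKM for the same genes; per the submitters' processing notes the tools were Trim Galore, STAR, featureCounts of Subread and DESeq2 with build mm10, with no versions or roles. For annotation, strand setting and reads with several matches, the setting was not given in the sources used here. The deposited FPKM follow median-of-ratios size factors (to within 1.1e-14 over 11966 genes). The 551 rows without a gene name, 0.108% to 0.123% of counts, were left out.

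Counts were fitted with edgeR 4.0.16 in R 4.3.3 (filterByExpr with minimum count 10 and minimum total 15, TMM factors, quasi-likelihood test of the group over 6 libraries); SE is the log2 fold change divided by the square root of F. The test was tried on simulated counts with the same scatter for every gene, unlike these data, and no result above rests on that trial. Alternatives were DESeq2 1.42.0, RLE, upper-quartile and library-total scaling, limma-voom, no filter, a filter of 5 CPM or more in 3 libraries, limma 3.58.1 on log2(FPKM + 1) unfiltered or keeping genes averaging 1 FPKM or more, the latter also with a pseudocount of 0.1, the replicate number as a block, and each library left out. Members and lists were chosen with earlier results of these data known. Named are all tested members, untested members with at least 10 counts in a library and up to 6 called genes a list by smallest adjusted p. The receptors of called members and the 3 most abundant genes of the main marker lists are named too. Adam17, Tnfaip3, Zfp36l1, Zfp36l2, Nfkbie, Nfkb2, the uncalled NF-kB genes listed with them and the neighbours Ciapin1 and Coq9 fall outside this rule. Positions are from GENCODE M21, which matched 47 of 49 members by symbol. A gene of the receptor list is not reported here.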

Additional observations from a re-analysis of the deposited data

How the results depend on the processing

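Csf1 and Cx3cl1 kept their call under all 17 alternatives. Members called higher, 1 in the text, were 3 with DESeq2 or library totals, 2 with at least 5 CPM in 3 libraries, 4 with either filtered fit on log2 FPKM and 2 with the unfiltered one. Members called lower, 7 in the text, were 4 with library totals and 2 with unfiltered log2(FPKM + 1), and 3 to 7 with 1 library left out. Scaling by library totals put the median log2 fold change of all tested genes 0.13 higher. Receptor genes called higher (1) were 2 with DESeq2, library totals, no filter, the stricter filter and both filtered fits on log2 FPKM, 0 with the unfiltered one and 0 to 2 with 1 library left out; those called lower (3) were 0 with the unfiltered fit. All genes called higher (1324) were 2081 with DESeq2, 537 with unfiltered log2(FPKM + 1) and 706 to 1159 with 1 library left out, and all genes called lower (1991) were 864 with the unfiltered fit.

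With the replicate number as a block, members called numbered 6 (Cxcl1, adjusted p = 0.0575, and Cxcl10, adjusted p = 0.0822, were lost), receptor genes called higher 0 and lower 1, and all genes called higher 813. Deviations of same-numbered libraries correlated at -0.0668, -0.00212 and -0.0593, so the numbers are not shown to pair the libraries.

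Signs turned only for members not called in the text. Lif was at 0.037 with upper-quartile factors, 0.093 with library totals, 0.028 with the stricter filter, 0.0025 with log2(FPKM + 1), filtered or not, and 0.0076 with log2(FPKM + 0.1). Ccl6 was at 0.0080 and 0.063 and Ccl3 at 0.0089 and 0.062 with upper-quartile and library-total scaling. Ccl21a was at 0.16 with limma-voom, 0.069 with log2(FPKM + 1), filtered or not, 0.12 with log2(FPKM + 0.1) and 0.078 with the block. With 1 library left out, Lif ran from -0.16 to 0.21, Ccl9 ran from -0.077 to 0.30, Ccl6 ran from -0.31 to 0.18, Ccl3 ran from -0.66 to 0.22, Tnf ran from -0.014 to 0.24, Ccl21a ran from -0.58 to 0.53, Il6 ran from -0.072 to 0.57, Cxcl3 ran from -0.35 to 0.021, Cxcl13 ran from -0.73 to 1.83, Ccl24 ran from -0.87 to 0.13, Ccl22 ran from -0.77 to 1.35 and Il34 from -0.0026 to 0.55. Of 610 member results over the alternatives, 535 kept sign and side of the threshold, most of them of members that simply stayed uncalled. In 27 a call of the text ended, in 15 a call was gained and in 33 the sign turned. Of the called members, Cxcl1 and Cxcl10 each kept their call under 9 of 17 alternatives and Cxcl12 under 10.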
